A study of Mus musculus with 18 samples.

Results

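The YAP-TAZ factors and matricellular target genes are 9 mouse genes picked by name for their place at the output end of the Hippo pathway, out of 50600 genes in the count tables. They are the coactivators Yap1 and Wwtr1, the target genes Ccn1, Ccn2, Ankrd1 and Amotl2, the matricellular protein genes Postn and Thbs1, and the protease inhibitor gene Timp1. The 9 genes were chosen with earlier results of these data known. Counts of called members beside shares of all genes therefore describe the set and do not test it. All 9 were found by symbol and all 9 passed the filter on low counts. Messenger RNA was measured by strand-specific poly-A RNA sequencing in C2C12, an immortal mouse myoblast line that fuses into myotubes when its medium is changed. The study compared 3 kinds of stable C2C12 line. The ERK3-depleted line had been transfected with px459-Mapk6sg and the MK5-depleted line with px459-Mk5sg, which are Cas9 plasmids aimed at the genes of the kinases ERK3 (Mapk6) and MK5 (Mapkapk5). The control line had received a control plasmid. Each line was sampled after 2 days in differentiation medium (DM2) and in growth medium (GM), with 3 libraries per line and medium and 18 in all. The labels do not say whether a line was 1 clone or a pool of transfected cells, nor whether libraries of 1 group came from separate cultures, so the p-values measure only the spread between these libraries.

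YAP and TAZ (the product of Wwtr1) are coactivators without a DNA-binding domain of their own. The Hippo kinases MST and LATS phosphorylate them, which keeps them in the cytoplasm. When that restraint is low they enter the nucleus, bind TEAD transcription factors and switch on genes such as Ccn1, Ccn2 and Ankrd1. YAP holds myoblasts in a proliferative state, while TAZ has been tied to both proliferation and later differentiation. Matricellular proteins are secreted into the matrix, where they act on receptors and growth factors rather than as scaffold.

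The TEAD factors recognise a short motif, spelled GGAATG on 1 strand and CATTCC on the other. RefSeq promoter windows of the mouse assembly GRCm38.p6, running 250 bases before to 50 bases after each gene's start, were at hand for 7 of the 9 genes, all but Ccn2 and Thbs1. GGAATG, searched on both strands, lay in 6 of these 7, all but Postn, and in 14.7% of 32851 windows of the same length over all genes. The stretches around it are shown because they are the piece of sequence through which YAP and TAZ act in the textbook scheme. Each is written 5′ to 3′ on the strand that reads GGAATG, with the motif in capitals.
Yap1 (chr9:8004722-8004747, minus strand): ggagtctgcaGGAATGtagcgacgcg
Wwtr1 (chr3:57576031-57576056, minus strand): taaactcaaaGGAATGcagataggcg
Ccn1 (chr3:145650073-145650098, plus strand): aaacatctcaGGAATGttggttggcg
Ankrd1, distal copy (chr19:36120039-36120064, minus strand): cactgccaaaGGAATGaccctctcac
Ankrd1, proximal copy (chr19:36119952-36119977, minus strand): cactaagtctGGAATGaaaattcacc
Amotl2 (chr9:102717729-102717754, minus strand): tgctatgccaGGAATGtgagagtttc
Timp1 (chrX:20869916-20869934, plus strand): acaGGAATGcctttcttgt
Counted from the gene's start, with bases before it negative, the motif lay at -141 in Yap1, -136 in Wwtr1 (-170 from a second start), -103 in Ccn1, -210 and -123 in Ankrd1, -65 in Amotl2 and -247 in Timp1. It ran on the strand opposite to the gene in Ccn1 and Amotl2 and on the gene's own strand in the others. The 250 bases before the start of Ccn1 hold the opposite-strand reading CATTCC and a TATAAA box at -25, both in capitals below, on the gene's own (minus) strand.
Ccn1 promoter (chr3:145649986-145650235, minus strand): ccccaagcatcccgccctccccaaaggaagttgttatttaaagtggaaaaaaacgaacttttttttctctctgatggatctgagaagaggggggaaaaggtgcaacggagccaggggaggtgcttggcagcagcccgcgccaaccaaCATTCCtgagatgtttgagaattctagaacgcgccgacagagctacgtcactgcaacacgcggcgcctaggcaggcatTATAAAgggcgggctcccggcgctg
TATAAA was also found at -26 in 1 of the 2 Postn windows, and in 13.6% of all windows. The AP-1 motif TGANTCA was in 0 of 7 windows (7.81% of all) and the CArG box of SRF in 0 of 7 (1.63% of all). A match says only that these letters are in the window, and its absence only that they are not.

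The 18 libraries held 17474562 to 23423050 reads assigned to genes, and 18547 to 19239 genes had a count. Of the 13939 genes tested, the 9 members had between 1851 and 89179 reads in a library. Mapk6 averaged 116 CPM (reads of a gene scaled to a common library size) in ERK3-depleted and 159 CPM in MK5-depleted DM2 libraries, against 210 CPM in control DM2 libraries, and was called lower in both lines there (adjusted p = 2.18e-05 and 0.0115). In GM it averaged 118 CPM in ERK3-depleted and 164 CPM in MK5-depleted libraries, against 131 CPM in control libraries, with no call in either line. Mapkapk5 stood at 0.58 to 1.55 CPM (11 to 32 reads) in all libraries and was called lower only in MK5-depleted DM2 libraries (log2 fold change -0.68, adjusted p = 0.0443). A transcript level does not show whether a guide cut its gene. The share of reads that fell outside genes was 2.40% to 7.73%. It was highest in ERK3-depleted DM2 libraries 2 (7.73%) and 1 (5.55%) and MK5-depleted DM2 libraries 2 (4.11%) and 1 (3.96%). Fits without these 4 libraries keep a single DM2 library, number 3, of each depleted line. Of 6 myoblast and myotube markers, Myod1, Cdh15 and Des were called higher in GM in both depleted lines, and their summed level was 1603 to 1825 CPM in ERK3-depleted, 1492 to 1768 CPM in MK5-depleted and 1150.1 to 1350 CPM in control GM libraries. At DM2 the sum was 3300.1 to 3690.0 CPM in ERK3-depleted, 3122 to 3932 CPM in MK5-depleted and 2871 to 3018 CPM in control libraries, with Des alone averaging 2280.2 CPM, 2120.2 CPM and 1350 CPM in these lines. Des was the single marker called higher there, while Myf5 was called lower in ERK3-depleted cells (-0.44) and the list's median log2 fold change was -0.28 and -0.09. Myog (-0.66 and -0.32), Myh3 (-0.63 and -0.26), Myod1 (-0.12 and -0.07) and Cdh15 (0.15 and 0.27) were not called. The DM2 minus GM change was smaller than in control for Myod1, Myog and Myh3 in ERK3-depleted cells (-0.78, -1.72 and -1.88, log2) and for Myod1 in MK5-depleted cells (-0.67). The part of these markers in the results below was not tested. The defining markers Tie1, Emcn, Adgre1, Plin1, Cidec, Lep and Sox10 of endothelial, macrophage, fat and glial cells were at 0 in every library. Of 7 fibroblast markers, 4 were tested (Pdgfra, Dcn, Dpt and Pi16). All 4 were called lower in GM in both depleted lines, against 6.79% and 8.45% of all genes called. The list's medians there were -1.36 in ERK3-depleted and -1.72 in MK5-depleted cells. At DM2 Pdgfra (-0.71) and Dpt (-1.07) were called lower in ERK3-depleted cells, and Pdgfra (-0.91) and Dcn (-0.79) in MK5-depleted cells. The others, with Pi16 at 0.46 and 0.48, were not called there. The part of these fibroblast markers in the results below was not tested. The list summed to 27.8 to 33.2 CPM in ERK3-depleted, 27.0 to 27.5 CPM in MK5-depleted and 38.1 to 54.9 CPM in control GM libraries, and to 77.0 to 106 CPM, 56.7 to 93.1 CPM and 80.6 to 134 CPM at DM2.

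Levels of different genes were compared on TPM, the deposited transcript abundance corrected for transcript length. Thbs1 was the most abundant of the 9 transcripts in control cells, with a mean of 922 TPM at DM2 and 753 TPM in GM, followed by Timp1 with 553 TPM at DM2 and 468 TPM in GM. Yap1 was the least abundant, at 58.6 TPM at DM2 and 52.2 TPM in GM. Postn, whose product periostin is a secreted integrin ligand, moved furthest in the order, with 408 TPM at DM2 against 57.6 TPM in GM. The Wwtr1 to Yap1 ratio of TPM values, taken within each library, was 1.56 ± 0.0940 at DM2 and 0.956 ± 0.0723 in GM in ERK3-depleted cells (SD, n = 3 each). It was 1.59 ± 0.0861 at DM2 and 0.937 ± 0.0291 in GM in MK5-depleted cells, and 1.69 ± 0.160 at DM2 and 1.06 ± 0.105 in GM in control cells. Transcripts of both factors were about equally common in GM, and Wwtr1 was the more common at DM2 in every line. TPM values were not set against each other between lines, since the median log2 ratio of all genes' TPM over control was -0.40 in ERK3-depleted and -0.26 in MK5-depleted DM2 libraries. All comparisons between groups below use CPM on library sizes scaled by the trimmed mean of M values.

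**Figure D1:**
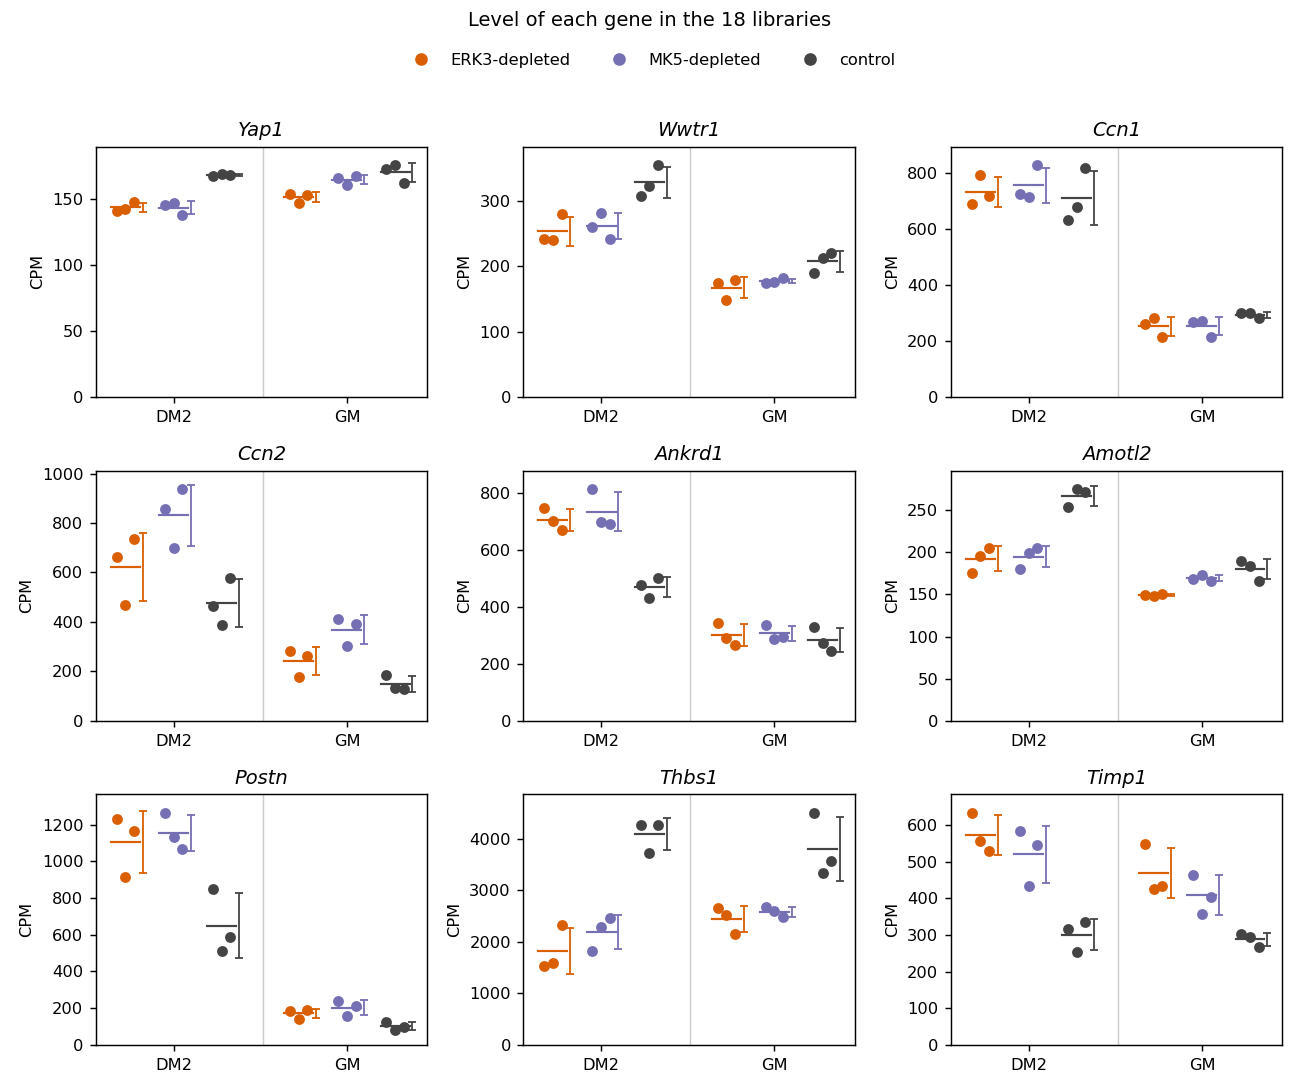
CPM of each of the 9 genes in the 18 libraries, 1 panel per gene with its own y axis, points for libraries and bars for group means. Depleted lines stand left of control in each medium; Postn, Ccn1 and Ccn2 are higher at DM2 than in GM in every line, and Thbs1 is lower in all depleted libraries than in any control library.

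Depletion of either kinase went with a split among the 9 genes at DM2. In ERK3-depleted cells 7 of 9 were called, with Ankrd1, Postn and Timp1 higher and Yap1, Wwtr1, Amotl2 and Thbs1 lower, where 55.8% of all tested genes were called (28% higher and 27.8% lower). In MK5-depleted cells 8 of 9 were called, the same 7 with the same signs and Ccn2 higher, against 45.1% of all genes (22.2% higher and 22.9% lower). Shares this large among all genes leave little room for the count of called members to stand out, and the result lies in which genes went which way and by how much. In GM 6 of 9 were called in ERK3-depleted cells (Ccn2, Postn and Timp1 higher, Wwtr1, Amotl2 and Thbs1 lower) against 6.79% of all genes (3.72% higher and 3.06% lower), and 4 of 9 in MK5-depleted cells (Ccn2, Postn and Timp1 higher, Thbs1 lower) against 8.45% (4.71% higher and 3.74% lower). Since the 9 genes were chosen with earlier results of these data known, these counts are no test of the set. The median log2 fold change of the 9 was 0.05 and 0.09 at DM2 in ERK3-depleted and MK5-depleted cells and -0.17 and -0.05 in GM, beside 0.01, 0.00, -0.01 and -0.01 over all genes. Libraries of a depleted line did not overlap control at DM2 for 7 members in ERK3-depleted and 8 in MK5-depleted cells, against 60.3% and 56.9% of all genes. In GM this held for 6 members in each line, against 31.1% and 32.1% of all genes. Lack of overlap, given gene by gene below, was thus common among all genes, above all at DM2. Both lines were set against the same control libraries, so their values stand side by side here and are no evidence for each other. In bulk RNA, fewer cells of a type and less RNA per cell cannot be told apart.

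**Figure D2:**
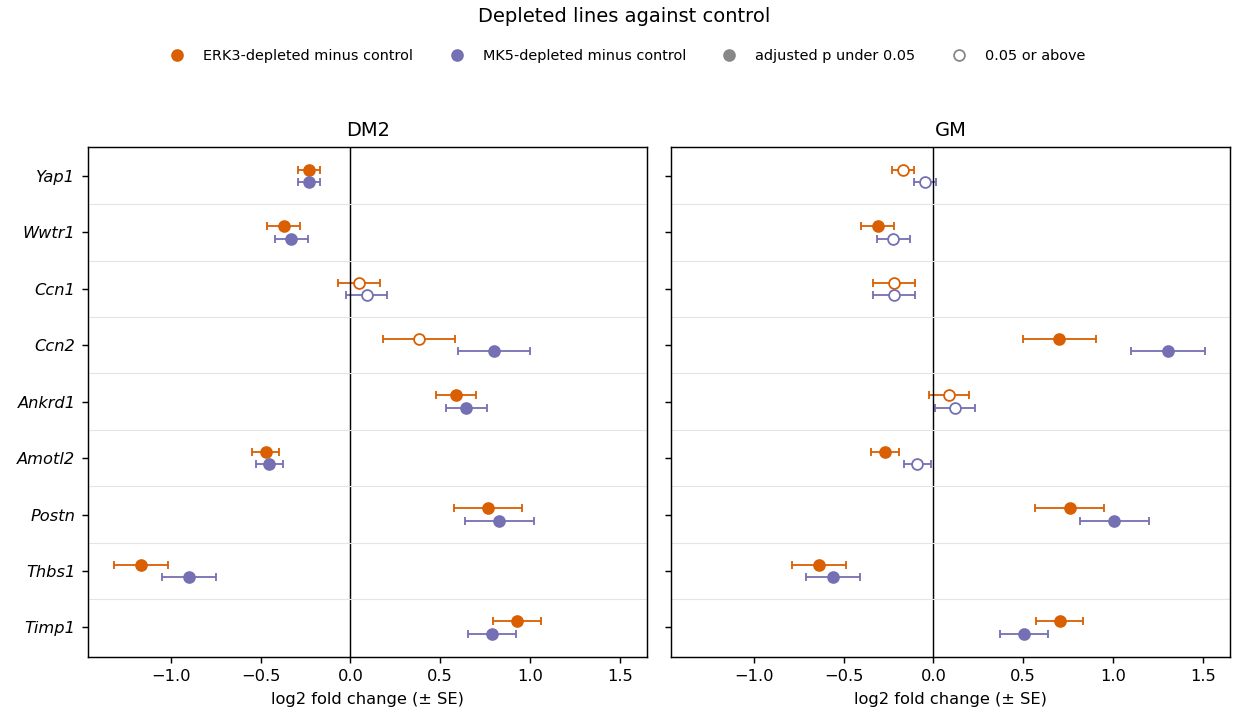
Log2 fold change of each gene in ERK3-depleted and MK5-depleted over control libraries, at DM2 and in GM, with bars of 1 standard error from the edgeR fit; filled points passed an adjusted p of 0.05. Thbs1 lies furthest below 0 at DM2 (-1.17 and -0.90), and Timp1, Postn and Ankrd1 lie above 0 there in both lines.

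The 2 media differed in how firmly the calls held. Every member called at DM2 kept its call and direction in each fit that left out a single library of that comparison. In GM, the number of members called in ERK3-depleted cells was 0 without ERK3-depleted library 1, control library 2 or control library 3, and 1 without ERK3-depleted library 3, while the calls among all genes in these 4 fits, in this order, were 0, 0, 73 and 633 of 13939. In MK5-depleted cells in GM the number was 1 without control library 2, and 2 without MK5-depleted library 1 or 3 or control library 3. Fold changes in these fits kept their sign for every member that had been called. Libraries with the same replicate number deviated together in both GM comparisons with control, and with that number as a block 13.7% of all genes were called in ERK3-depleted and 14.7% in MK5-depleted GM cells, where the same 6 and 4 members were called.

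Without a correction for transcript length, transcripts of both coactivators were lower in depleted cells at DM2, by a small margin. With such a correction, given below, Yap1 was at 0.09 and 0.04 and Wwtr1 at -0.07 in both lines (log2), none of them called. Yap1 was at 141, 142 and 147 CPM in ERK3-depleted and 145, 147 and 137 CPM in MK5-depleted DM2 libraries, against 167, 168 and 168 CPM in control DM2 libraries. All 6 depleted libraries lay below the 3 control libraries, which were nearly equal. The log2 fold change was -0.23 ± 0.06 in both lines (edgeR's quasi-likelihood test with Benjamini-Hochberg adjustment, adjusted p = 0.00415 in ERK3-depleted and 0.00522 in MK5-depleted cells). In GM Yap1 was at 154, 147 and 153 CPM in ERK3-depleted and 165, 160.3 and 167 CPM in MK5-depleted libraries, against 172, 175 and 162 CPM in control libraries. The ERK3-depleted libraries lay below the control libraries and the MK5-depleted ones overlapped them, and neither line was called (log2 fold change -0.17 and -0.05). Over the change of medium Yap1 was called only in MK5-depleted cells (-0.20 ± 0.06, adjusted p = 0.0113), with -0.08 in ERK3-depleted and -0.02 in control cells. With offsets for length and GC content, described below, the change in MK5-depleted cells was 0.00 (adjusted p = 0.964). The call was also lost with only the libraries of the contrast (adjusted p = 0.0552) and with no filter on low counts (0.138), and having no filter also ended the MK5-depleted DM2 call (0.0759). DESeq2 called Yap1 lower in ERK3-depleted GM cells (-0.17, adjusted p = 0.0132).

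Wwtr1 was at 242, 240.3 and 279.8 CPM in ERK3-depleted and 261, 282 and 242 CPM in MK5-depleted DM2 libraries, against 308, 323 and 355 CPM in control DM2 libraries. Again no depleted library reached the lowest control library, where 60.3% and 56.9% of all genes showed no overlap with control. The log2 fold change was -0.37 ± 0.09 (adjusted p = 0.00215) in ERK3-depleted and -0.33 ± 0.09 (adjusted p = 0.00713) in MK5-depleted cells. In GM the values were 175, 149 and 179 CPM in ERK3-depleted and 175, 177 and 182 CPM in MK5-depleted libraries, against 189.9, 213 and 220.1 CPM in control libraries. These groups did not overlap either, and Wwtr1 was called lower in ERK3-depleted cells (-0.31 ± 0.09, adjusted p = 0.0489) and not in MK5-depleted cells (-0.22, adjusted p = 0.139). That call was lost with relative-log-expression size factors (adjusted p = 0.0509), RSEM expected counts (0.0538), no filter (0.0538), length and GC offsets (0.0567), unstranded counts (0.0604) and only the libraries of the contrast (0.0687). With the offsets Wwtr1 was called lower in MK5-depleted GM cells (-0.23, adjusted p = 0.0458). Wwtr1 rose over the change of medium in every line, by 0.60 in ERK3-depleted, 0.56 in MK5-depleted and 0.66 in control cells on the log2 scale. Without the 4 libraries with most reads outside genes, a single ERK3-depleted DM2 library remained. The ERK3-depleted DM2 difference was then -0.19 for Yap1 and -0.24 for Wwtr1. A covariate for the outside-gene share ended both calls (-0.21, adjusted p = 0.120, for Yap1 and -0.33, adjusted p = 0.0969, for Wwtr1).

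Transcript length moved with the DM2 comparisons, and Yap1 and Wwtr1 have long transcripts of 5282 and 4697 bases. Across 13918 genes with a length, the log2 fold change fell with transcript length, with a Spearman correlation of -0.38 in ERK3-depleted and -0.40 in MK5-depleted cells at DM2, -0.31 in ERK3-depleted cells in GM and 0.02 in MK5-depleted cells in GM. The median log2 fold change at DM2 was -0.23 and -0.22 among long genes (from 4134 bases) and 0.36 and 0.28 among short ones (up to 2403 bases), with equal numbers of long, middle and short genes. With offsets for length and GC content, Yap1 at DM2 was 0.09 in ERK3-depleted and 0.04 in MK5-depleted cells and Wwtr1 was -0.07 in both, none of them called. The other 5 genes called in both lines at DM2 kept their calls with the offsets, as did Ccn2 in MK5-depleted cells (0.76). Thbs1 (5848 bases) was -0.88 and -0.68, Amotl2 (4427 bases) -0.35 and -0.39, Postn (5223 bases) 0.83 and 1.11, Ankrd1 (2020 bases) 0.47 and 0.55, and Timp1 (883 bases, the shortest) 0.50 and 0.41 in ERK3-depleted and MK5-depleted cells. Timp1 shrank the most of these 5 genes, and Postn was the only one to move away from 0 in both lines.

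**Figure D3:**
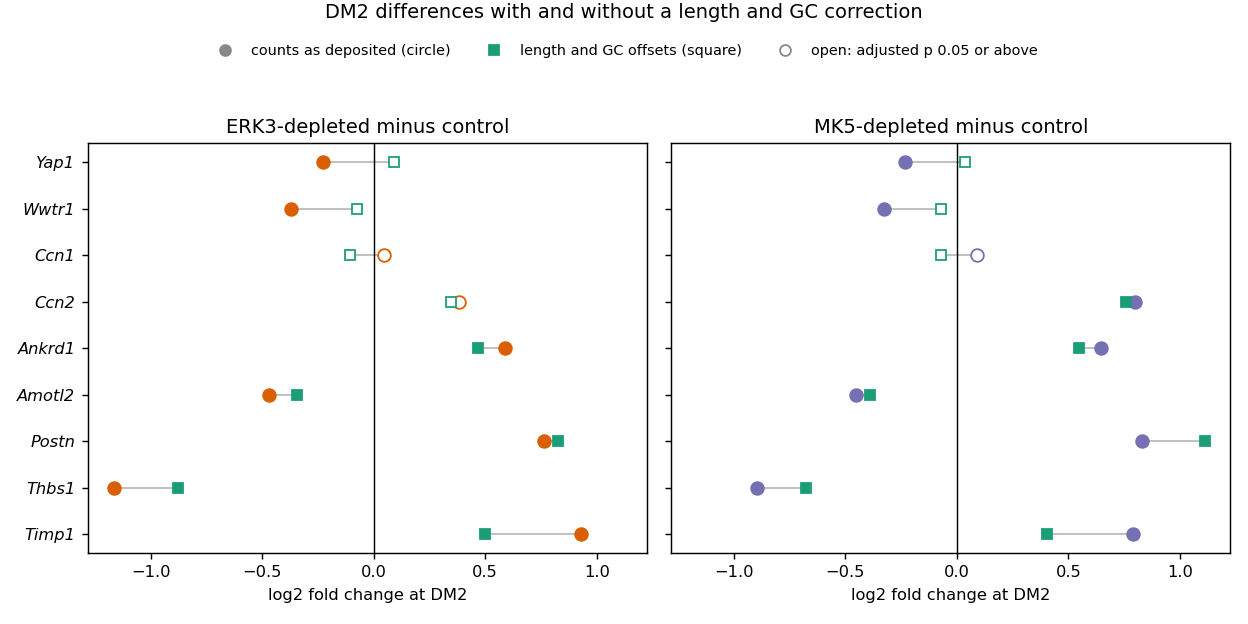
Log2 fold change of each gene over control at DM2 without and with offsets for transcript length and GC content, in ERK3-depleted and MK5-depleted cells. Yap1 crosses 0 with the offsets (0.09 and 0.04) and Wwtr1 comes to -0.07, while Thbs1 and Amotl2 stay below 0 and Postn, Ankrd1 and Timp1 above it.

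Ccn1 and Ccn2, the textbook reporters of YAP and TAZ activity, parted from each other. Ccn1, which encodes the secreted integrin ligand CYR61, was at 688, 793 and 719 CPM in ERK3-depleted and 724, 716 and 828 CPM in MK5-depleted DM2 libraries, against 634, 678 and 818 CPM in control DM2 libraries. In GM it was at 261, 282 and 214 CPM in ERK3-depleted and 269, 272 and 215 CPM in MK5-depleted libraries, against 301, 299 and 281 CPM in control libraries. The DM2 groups overlapped, and in GM the ERK3-depleted libraries included 1 that exceeded the lowest control library. Ccn1 was called in neither line in either medium (log2 fold change 0.05 and 0.09 at DM2, -0.22 and -0.22 in GM, for ERK3-depleted and MK5-depleted cells). It rose strongly with the medium in every line, by 1.54 in ERK3-depleted, 1.58 in MK5-depleted and 1.27 in control cells (log2).

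Ccn2, which encodes the connective tissue growth factor CTGF, was at 285, 179 and 263 CPM in ERK3-depleted and 412, 302 and 391 CPM in MK5-depleted GM libraries, against 185, 133 and 129 CPM in control GM libraries. The MK5-depleted libraries lay well above control, while the lowest ERK3-depleted library was just under the highest control library. The log2 fold change was 1.31 ± 0.21 (adjusted p = 0.00326) in MK5-depleted and 0.70 ± 0.20 (adjusted p = 0.0476) in ERK3-depleted cells. At DM2 Ccn2 was at 664, 468 and 735 CPM in ERK3-depleted and 855, 699 and 937 CPM in MK5-depleted libraries, against 466, 387 and 578 CPM in control libraries. Again only MK5-depleted cells stood clear of control, at 0.80 ± 0.20 (adjusted p = 0.00420), with 0.38 ± 0.20 (adjusted p = 0.116) in ERK3-depleted cells. Same-numbered libraries deviated together in the ERK3-depleted DM2 comparison, and with the replicate number as a block Ccn2 was called there as well, at 0.37 ± 0.11 (adjusted p = 0.00955), so that 8 of 9 members were called against 59.4% of all genes. It was also called on unstranded counts (0.64, adjusted p = 0.00920), with no filter (0.35, adjusted p = 0.00306), with the outside-gene share as a covariate (0.84, adjusted p = 0.0427) and without ERK3-depleted DM2 library 2 (0.54, adjusted p = 0.0441). The ERK3-depleted GM call was lost on RSEM expected counts (adjusted p = 0.0826), with length and GC offsets (0.0711), with only the libraries of the contrast (0.0521) and with relative-log-expression size factors (0.0503). Ccn2 overlaps Gm15270 on the opposite strand, and its strand-specific counts summed to 154662 reads against 132930 in unstranded counting. Within libraries, Ccn2 stood at 0.752 ± 0.254 times Ccn1 in TPM in ERK3-depleted and 1.15 ± 0.288 times in MK5-depleted GM libraries, against 0.385 ± 0.0739 times in control GM libraries (SD, n = 3 each). At DM2 the ratio was 0.595 ± 0.184 in ERK3-depleted and 0.795 ± 0.0800 in MK5-depleted libraries, against 0.527 ± 0.0667 in control libraries. Ccn2 rose with the medium in all lines, by 1.36 in ERK3-depleted, 1.17 in MK5-depleted and 1.68 in control cells (log2).

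Ankrd1 was higher in depleted cells only after the change of medium. It encodes CARP, an ankyrin-repeat protein of the sarcomere and nucleus. At DM2 it was at 746, 701 and 670.5 CPM in ERK3-depleted and 813, 699 and 689.7 CPM in MK5-depleted libraries, against 476, 431 and 501 CPM in control libraries. The lowest depleted library stood far above the highest control library, with a log2 fold change of 0.59 ± 0.11 (adjusted p = 0.000288) in ERK3-depleted and 0.65 ± 0.11 (adjusted p = 0.000269) in MK5-depleted cells. In GM Ankrd1 was at 343, 292 and 266 CPM in ERK3-depleted and 337, 288 and 296 CPM in MK5-depleted libraries, against 329, 275 and 245 CPM in control libraries. These groups overlapped throughout, and neither line was called (0.09 and 0.12). Its rise with the medium was 1.23 ± 0.11 in ERK3-depleted, 1.26 ± 0.11 in MK5-depleted and 0.73 ± 0.11 in control cells (log2).

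Amotl2 was lower in depleted cells at DM2. It encodes an angiomotin-family protein that binds YAP and holds it back, and is itself induced by YAP. At DM2 it was at 176, 195 and 205 CPM in ERK3-depleted and 180.4, 199 and 204 CPM in MK5-depleted libraries, against 253, 275 and 271 CPM in control libraries. No depleted library came near the lowest control library, and the log2 fold change was -0.47 ± 0.08 (adjusted p = 6.18e-05) in ERK3-depleted and -0.45 ± 0.08 (adjusted p = 0.000191) in MK5-depleted cells. In GM it was at 149.6, 148 and 149.8 CPM in ERK3-depleted and 169, 173 and 166 CPM in MK5-depleted libraries, against 189.8, 184 and 166 CPM in control libraries. Only the ERK3-depleted libraries lay below all control libraries, and only there was Amotl2 called (-0.27 ± 0.08, adjusted p = 0.0388; -0.09 in MK5-depleted cells), a call lost on unstranded counts (adjusted p = 0.0516), with only the libraries of the contrast (0.0641), with no filter (0.126) and when any 1 of the 6 libraries was left out. Amotl2 rose with the medium by 0.36 in ERK3-depleted, 0.20 (adjusted p = 0.0329) in MK5-depleted and 0.57 in control cells (log2). The rise in MK5-depleted cells lost its call in 5 of the 6 fits without 1 of its libraries (all but DM2 library 1), with adjusted p up to 0.179, with no filter (0.181) and with length and GC offsets (0.09, adjusted p = 0.270).

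Of the matricellular genes, Postn was higher in depleted cells in both media. At DM2 it was at 1233, 913 and 1166 CPM in ERK3-depleted and 1263, 1134 and 1068 CPM in MK5-depleted libraries, against 849, 513 and 588 CPM in control libraries. In GM it was at 183, 142 and 190.0 CPM in ERK3-depleted and 238, 159 and 214 CPM in MK5-depleted libraries, against 123, 81.3 and 100.1 CPM in control libraries. Neither medium showed an overlap between a depleted line and control, although library 2 was the lowest in every group but the MK5-depleted DM2 one. The log2 fold change at DM2 was 0.76 ± 0.19 (adjusted p = 0.00246) in ERK3-depleted and 0.83 ± 0.19 (adjusted p = 0.00204) in MK5-depleted cells, and in GM 0.76 ± 0.19 (adjusted p = 0.0271) and 1.01 ± 0.19 (adjusted p = 0.00677). Its rise with the medium was the steepest of the 9 genes in every line, at 6.43-fold in ERK3-depleted, 5.67-fold in MK5-depleted and 6.41-fold in control cells. Without the 4 libraries with most reads outside genes, which leaves a single DM2 library of each depleted line, the DM2 differences were 0.84 and 0.73. The ERK3-depleted GM call was lost in 4 of 6 fits without 1 of its libraries (adjusted p up to 0.168). The MK5-depleted GM call was lost in 1 of 6 (adjusted p = 0.0658).

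Thbs1 had the largest drop of the 9 genes at DM2. It encodes thrombospondin-1, which binds CD47 and integrins and can activate latent TGF-beta. At DM2 it was at 1540.1, 1591 and 2337 CPM in ERK3-depleted and 1821, 2297 and 2469 CPM in MK5-depleted libraries, against 4275, 3736 and 4266 CPM in control libraries. In GM it was at 2651, 2524 and 2162 CPM in ERK3-depleted and 2682, 2597 and 2481 CPM in MK5-depleted libraries, against 4505, 3342 and 3573 CPM in control libraries. Every depleted library lay below every control library in both media. The log2 fold change was -1.17 ± 0.15 (adjusted p = 1.11e-05) in ERK3-depleted and -0.90 ± 0.15 (adjusted p = 0.000203) in MK5-depleted cells at DM2, and -0.64 ± 0.15 (adjusted p = 0.0211) and -0.56 ± 0.15 (adjusted p = 0.0290) in GM. Over the change of medium Thbs1 fell in ERK3-depleted cells by 0.42 (log2, adjusted p = 0.0228), with -0.24 (adjusted p = 0.199) in MK5-depleted and 0.10 (adjusted p = 0.594) in control cells. Without the 4 libraries with most reads outside genes, DM2 library 3 (2337 CPM) alone remained in the ERK3-depleted line, and the fall came to -0.07. Its adjusted p was 0.138 without DM2 library 1, 0.103 without DM2 library 2, 0.0960 without GM library 1 and 0.0625 without GM library 2. Both of those DM2 libraries are among the 4. With the outside-gene share as a covariate the fall was -0.04 (adjusted p = 0.894), and with only the libraries of the contrast its adjusted p was 0.0643. The MK5-depleted GM call was lost in each of the 6 fits without 1 of its libraries (adjusted p up to 0.128). The ERK3-depleted GM call was lost in 5 of its 6 such fits (adjusted p up to 0.104).

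Timp1, an inhibitor of matrix metalloproteinases, was higher in depleted cells in both media. At DM2 it was at 633, 557 and 529 CPM in ERK3-depleted and 584, 434 and 546 CPM in MK5-depleted libraries, against 316, 253 and 334 CPM in control libraries. In GM it was at 547, 425 and 434 CPM in ERK3-depleted and 465, 357 and 404 CPM in MK5-depleted libraries, against 303, 295 and 267 CPM in control libraries. Every depleted library lay above every control library in both media. The log2 fold change was 0.93 ± 0.13 (adjusted p = 2.49e-05) in ERK3-depleted and 0.79 ± 0.13 (adjusted p = 0.000209) in MK5-depleted cells at DM2, and 0.70 ± 0.13 (adjusted p = 0.0109) and 0.50 ± 0.13 (adjusted p = 0.0266) in GM. With the medium it changed by 0.29 (adjusted p = 0.0720) in ERK3-depleted, 0.35 (adjusted p = 0.0356) in MK5-depleted and 0.06 (adjusted p = 0.721) in control cells, and was called only in MK5-depleted cells. Same-numbered ERK3-depleted libraries deviated together across the media, and with the replicate number as a block within each line Timp1 was called higher in ERK3-depleted cells too (0.29 ± 0.09, adjusted p = 0.0124), as it was with no filter (0.26, adjusted p = 0.0367). In MK5-depleted cells the change with length and GC offsets was 0.13 (adjusted p = 0.459), so that the call was lost. Without the 4 libraries with most reads outside genes, which leaves a single MK5-depleted DM2 library, it was 0.44. That call was also lost without GM library 2 or 3 or DM2 library 1 or 3, with adjusted p up to 0.143. Against control in GM, the ERK3-depleted call was lost in 3 of 6 fits without 1 of its libraries (adjusted p up to 0.103). The MK5-depleted call in GM was lost in 4 of 6 (adjusted p up to 0.149). Timp1 lies within the gene Syn1 on the opposite strand, as Yap1, Wwtr1 and Thbs1 overlap the opposite-strand genes Gm20416, Gm16016 and Gm29233.

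Over the change of medium itself, DM2 against GM, 6 of the 9 genes were called higher in control cells and 0 lower, against 45.6% of all genes called in either direction (22.5% higher and 23.1% lower). In ERK3-depleted cells 6 were higher (7, with Timp1, under the replicate block) and Thbs1 lower (of all genes 55.1%, with 28.9% higher and 26.2% lower, or 57.9% under the block), and in MK5-depleted cells 7 were higher and Yap1 lower (49.3%, with 24.6% higher and 24.8% lower). Wwtr1, Ccn1, Ccn2, Ankrd1, Amotl2 and Postn were the 6 genes called higher in all 3 lines. The median log2 change of the 9 was 0.60 in ERK3-depleted, 0.56 in MK5-depleted and 0.66 in control cells, beside 0.01, 0.00 and -0.02 over all genes.

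Whether the response to the medium differed between lines was tested directly, as the DM2 minus GM change in a depleted line less that in control. In ERK3-depleted cells 1 of 9 genes was called, Ankrd1, against 28.6% of all genes (14.6% higher and 14% lower), so the members' share was below that of all genes. In MK5-depleted cells 2 of 9 were called, Ankrd1 and Amotl2, against 18% (8.54% higher and 9.48% lower). Ankrd1 rose more than in control by 0.50 ± 0.16 (log2, adjusted p = 0.0259) in ERK3-depleted and 0.53 ± 0.16 (adjusted p = 0.0313) in MK5-depleted cells. Amotl2 rose less, by -0.36 ± 0.11 (adjusted p = 0.0283) in MK5-depleted cells, with -0.20 (adjusted p = 0.163) in ERK3-depleted cells. Thbs1 differed by -0.53 ± 0.21 (adjusted p = 0.0676) in ERK3-depleted and -0.34 (adjusted p = 0.259) in MK5-depleted cells, and Yap1 by -0.06 and -0.18 (adjusted p = 0.631 and 0.135), none of them called. DESeq2 called Yap1 in MK5-depleted cells (-0.20, adjusted p = 0.0342), and with no filter Thbs1 was called in ERK3-depleted cells (-0.57, adjusted p = 0.000726). Leaving out the 4 libraries with most reads outside genes kept a single DM2 library of each depleted line. Ankrd1 was then 0.41 in ERK3-depleted and 0.44 in MK5-depleted cells, and Amotl2 in MK5-depleted cells -0.29. The Ankrd1 call in ERK3-depleted cells was lost without GM library 3 or DM2 library 1 or 2 of that line, or control GM library 1 or control DM2 library 2 (0.38 to 0.49). With the outside-gene share as a covariate it was 0.51 (adjusted p = 0.178). In MK5-depleted cells the Ankrd1 call was lost in 7 of 12 fits without a single library and the Amotl2 call in 9 of 12, and both were lost with length and GC offsets (0.43, adjusted p = 0.0673, and -0.30, adjusted p = 0.0587).

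**Figure D4:**
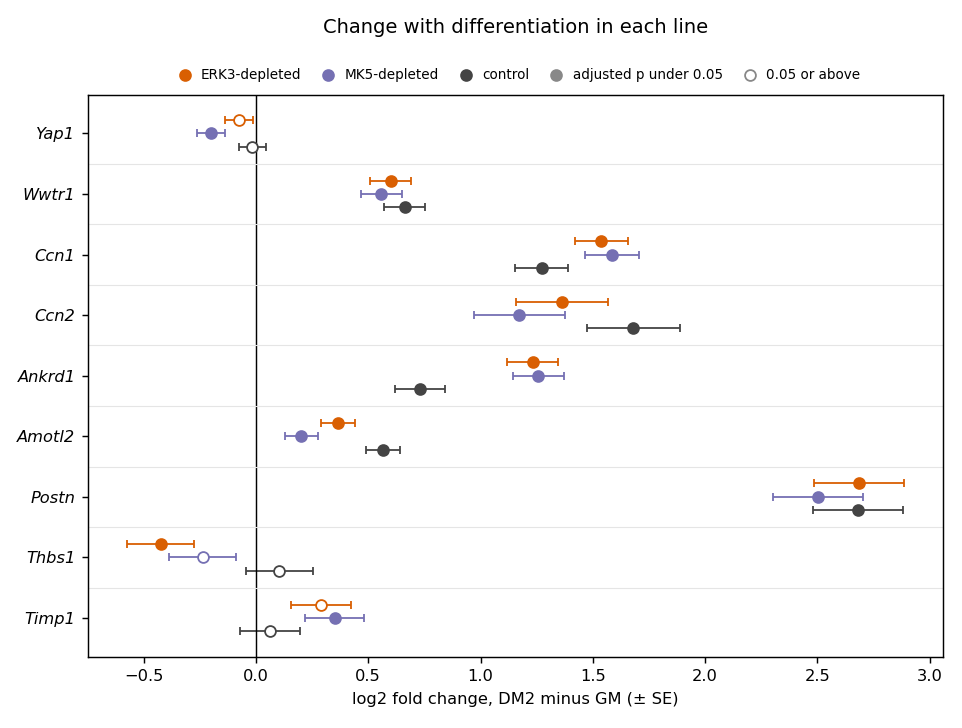
Log2 change of each gene at DM2 over GM in the ERK3-depleted, MK5-depleted and control lines, with bars of 1 standard error. Postn shows the steepest rise in all 3 lines (6.43-fold, 5.67-fold and 6.41-fold), the Ankrd1 rise is 1.23 and 1.26 in the depleted lines and 0.73 in control, and Thbs1 lies at -0.42, -0.24 and 0.10 (-0.08 in control with the length and GC offsets).

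The 2 depleted lines were also set against each other. edgeR called 0 of 13939 genes in either medium (0% of all genes), with an unadjusted p under 0.05 for 1167 genes (8.37%), 2 of them members, in GM and for 2741 genes (19.7%), 0 of them members, at DM2. DESeq2 called 10 genes in GM and 204 at DM2, with 0 members in either medium. At DM2 same-numbered libraries of the depleted lines deviated together, and with the replicate number as a block edgeR called 368 genes (2.64%), again 0 of them members. The 2 members were Ccn2, higher in MK5-depleted than in ERK3-depleted GM libraries by 0.61 ± 0.20 (log2, adjusted p = 0.476), and Amotl2 by 0.18 (adjusted p = 0.545). At DM2 these differences were 0.42 (adjusted p = 0.263) for Ccn2 and 0.02 (adjusted p = 0.907) for Amotl2. A difference between both depleted lines was therefore not shown for any of the 9 genes, which is not evidence that they are alike. With no filter on low counts Ccn2 was called higher in MK5-depleted than in ERK3-depleted cells, by 0.61 in GM (adjusted p = 3.63e-06) and by 0.44 (adjusted p = 0.000843) at DM2. At DM2 it was also called with the offsets and the block together (0.42, adjusted p = 0.0428).

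The genes around YAP and TAZ were taken from lists of textbook members, compiled with earlier results of these data known. Of 27 Hippo kinase cascade genes and upstream regulators, 12 were called lower and 4 higher in ERK3-depleted cells at DM2, and 12 lower and 3 higher in MK5-depleted cells. The list's medians were -0.21 and -0.21, beside 0.01 and 0.00 over all genes and -0.23 and -0.22 among long genes (from 4134 bases). Values of the listed genes here and in the lists below are without the length and GC offsets, so the part of transcript length in them was not tested. Of all tested genes 55.8% were called there in ERK3-depleted cells (28% higher and 27.8% lower) and 45.1% in MK5-depleted cells (22.2% higher and 22.9% lower), so the list's count in ERK3-depleted cells was close to the share of all genes. Lats2, a kinase that phosphorylates YAP and TAZ, was at -1.05 ± 0.13 and -0.90 ± 0.13 in ERK3-depleted and MK5-depleted cells, and its cofactor Mob1a at -0.82 and -0.58. Rassf1, a scaffold that binds the MST kinases, was higher, at 0.55 and 0.65. In GM only Dchs1 (-1.27 and -1.01) and, in ERK3-depleted cells, Amot (-0.45) were called in this list, against 6.79% and 8.45% of all genes. With the replicate block 8 were lower in ERK3-depleted GM cells, Fat4 (-0.60) and Dlg5 (-0.34) among them, and 1 higher and 1 lower in MK5-depleted GM cells, against 13.7% and 14.7%. Of 9 tested DNA-binding partners and coregulators, 4 were lower and 2 higher in ERK3-depleted cells at DM2, and 4 lower and 1 higher in MK5-depleted cells, against the same 55.8% and 45.1% of all genes. In GM Tead1 (-0.51) and Vgll3 (-0.37) were lower and Vgll2 (1.36) higher in ERK3-depleted cells and 0 were called in MK5-depleted cells, and the block added Tead2 as higher in both lines (0.29 and 0.24). Among the TEAD factors Tead4 at DM2 was at -1.04 ± 0.18 and -0.90 ± 0.18, Tead1 at -0.65 and -0.47, and Tead2 at 0.61 and 0.70. Vgll4, which competes with YAP for TEAD, was at -1.19 and -0.98. Tead4 rose with the medium by 1.65 in ERK3-depleted, 1.59 in MK5-depleted and 2.90 in control cells, and its response was smaller than in control by -1.25 ± 0.28 (adjusted p = 0.00530) and -1.31 ± 0.27 (adjusted p = 0.00862).

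Of 20 other YAP-TAZ target genes, 10 were lower and 3 higher in ERK3-depleted cells at DM2, and 9 lower and 2 higher in MK5-depleted cells, where 27.8% and 22.9% of all genes were lower and 28% and 22.2% higher. The list's medians were -0.28 and -0.21, beside -0.23 and -0.22 among long genes. Crim1, a transmembrane regulator of growth factors, was at -1.33 ± 0.11 and -1.17 ± 0.11, and Rbms3, an RNA-binding protein, at 1.15 and 0.73. In GM 2 of the 20 were lower and 0 higher in each line, among them Asap1 at -0.40 and -0.31, where 3.06% and 3.74% of all genes were lower. With the block 3 were lower in ERK3-depleted and 4 in MK5-depleted cells. That was 15% and 20% of the list, beside 13.7% and 14.7% of all genes called in either direction. Lats2 belongs to this list as well as to the cascade. All 3 tested genes of 4 in the rest of the CCN family rose with the medium in all lines, Ccn3 by 2.71 in ERK3-depleted, 2.88 in MK5-depleted and 1.97 in control cells (log2). Of all genes 28.9%, 24.6% and 22.5% were called higher over the medium in these lines. Against control, Ccn3 was higher in MK5-depleted cells at DM2 (0.62) and lower in ERK3-depleted cells in GM (-0.58).

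Other matricellular genes (13 of 18 tested) split evenly at DM2, with 5 higher and 5 lower in ERK3-depleted and 4 higher and 4 lower in MK5-depleted cells, as all genes did (28% higher and 27.8% lower, 22.2% higher and 22.9% lower). Tnc, the matricellular protein tenascin-C, was at 0.93 ± 0.27 and 1.25 ± 0.27, and Thbs3, a relative of Thbs1, at -0.77 in ERK3-depleted cells. Thbs2 was at -0.51 in MK5-depleted cells. In GM only Thbs3 was called, in ERK3-depleted cells (-0.44). With the replicate block Thbs2 (-0.29) was lower and Fbln2 (0.30), the matrix protein fibulin-2, higher there as well, and Tnc (0.74) and Fbln2 (0.31) were higher in MK5-depleted GM cells. Of 7 tested TIMPs and matrix metalloproteinases, 3 were lower and 1 higher in ERK3-depleted cells at DM2, and 4 lower and 0 higher in MK5-depleted cells, against 55.8% and 45.1% of all genes called. At DM2 Mmp2 was at -0.38 and -0.47 and Mmp14, which activates it, at -0.23 and -0.50. The inhibitors Timp3 (-0.39 in ERK3-depleted cells) and Timp2 (-0.40 in MK5-depleted cells) were lower, where Timp1 was higher. In GM 4 of the 7 were lower in MK5-depleted cells, Mmp2 (-0.54), Mmp14 (-0.34), Mmp19 (-0.58) and Timp2 (-0.33), with a list median of -0.54 against 8.45% of all genes called, and Timp3 (-0.44) was lower in ERK3-depleted cells. With the replicate block Mmp2 (-0.38) was lower in ERK3-depleted GM cells too, and Timp2 (-0.18) in ERK3-depleted DM2 cells. Of 11 tested receptors of the secreted members, 4 were higher and 4 lower in ERK3-depleted cells and 1 higher and 2 lower in MK5-depleted cells at DM2, against the same shares of all genes. In GM 1 was higher and 1 lower in ERK3-depleted and 1 higher in MK5-depleted cells, and with the block Cd47 (-0.33) was lower in ERK3-depleted and Itgb5 (-0.24) in MK5-depleted GM cells. At DM2 Lrp1, an endocytic receptor that binds thrombospondin-1 and CTGF, was at 1.01 ± 0.14 and 1.02 ± 0.14, and Itgb5 at -0.40 and -0.33.

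The profiles of the 9 genes over the 18 libraries are given as Pearson correlations of log2 CPM, which all share the same libraries and the same 6 groups. Among members the highest were Ankrd1 with Postn (r = 0.96) and Ccn2 with Postn (r = 0.93), and the lowest were Thbs1 with Timp1 (r = -0.85) and Yap1 with Timp1 (r = -0.82). Yap1 and Wwtr1 had r = -0.01. Among 10054 other genes with a mean of at least 5 CPM, the profiles most like Wwtr1 were those of Gpm6b (r = 0.98), Vgll3 (r = 0.98) and Fgf2 (r = 0.98). Those most like Yap1 were Esyt2 (r = 0.95) and Acbd5 (r = 0.94), those most like Ccn1 were Camk1g (r = 0.99) and Csdc2 (r = 0.99), and Nectin1 (r = 0.97) came nearest to Ccn2. Mgll (r = 0.98) and Atf4 (r = 0.98) came nearest to Ankrd1, Cped1 (r = 0.96) and Tenm3 (r = 0.96) to Amotl2, and Tmod1 (r = 0.99) and Sema6a (r = 0.99) to Postn. Col4a5 (r = 0.93) and Zhx1 (r = 0.93) came nearest to Thbs1, and Phf5a (r = 0.97) and Nop16 (r = 0.96) to Timp1.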

How the data were processed

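Stranded poly-A libraries of 18 C2C12 samples were used. The authors deposited a gene count table per library with unstranded, forward and reverse counts, and an RSEM table with expected counts and TPM, per the file headers; STAR 2.5.1b, RSEM 1.2.28, bcl2fastq 2.17 and GRCm38 are named per the submitters' processing notes. The reverse column held 92.8% to 95.3% of the stranded counts and was tested. The deposited expected counts, rounded to whole numbers, served as an alternative, and the deposited TPM only for levels between genes. Summary lines without a gene (21.7% to 35.8% of reads) were left out. Of 50600 genes, 13939 passed filterByExpr (minimum count 10, minimum total 15). All 18 libraries, as 6 group means, entered 1 edgeR 4.0.16 quasi-likelihood fit (R 4.3.3, limma 3.58.1) with trimmed-mean scaling, robust dispersion and 12 residual degrees of freedom, and Benjamini-Hochberg adjustment ran over all genes in each of 11 contrasts, with calls at an adjusted p under 0.05. Standard errors are on the log2 scale, and log2 CPM for correlations used a prior count of 2. Tested on simulated data for the ERK3-depleted GM comparison (13939 genes), the fit called 69.8% of genes changed by 1 and 21.2% of genes changed by 0.5 on the log2 scale, with 5.38% false among calls. The simulated libraries were independent, with the same dispersion for all genes and no pairing by replicate number or trend with length. These shares hold for that setting and need not hold for the real libraries. No libraries of a group were copies of each other: their squared differences were 7.57 to 82.4 times the counting variance.

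The members and lists were chosen with earlier results of these data known. All 9 members are named in the comparisons, and of each related list the called genes with the largest log2 change, at most 3 in each direction, or some of them; for likeness, some of the 3 genes with the highest Pearson correlation. Alternatives were DESeq2 1.42.0, other size factors, no filter, other counts, only the libraries of a contrast, offsets for length and GC content (spline with 5 degrees of freedom), the replicate number as a block, the outside-gene share as a covariate, a threshold of 0.01, each library left out in turn and, added after seeing the data, the 4 libraries with most reads outside genes left out. Replicate numbers come from the sample titles, and the labels do not say what a number shares. They were taken to pair the libraries of 2 groups where every same-numbered pair deviated from its group means with a correlation over 0.1. This held in 5 of 9 comparisons: ERK3-depleted against control in GM (0.155 to 0.290) and at DM2 (0.108 to 0.205), MK5-depleted against control in GM (0.142 to 0.190), both depleted lines at DM2 (0.281 to 0.498) and the media in ERK3-depleted cells (0.156 to 0.291). Sequences are from RefSeq (GRCm38.p6).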

Additional observations from a re-analysis of the deposited data

Results flagged for a closer look

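The response to differentiation medium was called different between lines for 3 results. Ankrd1 rose more with the medium in ERK3-depleted than in control cells, by 0.503 on the log2 scale (edgeR's quasi-likelihood test of the interaction, adjusted p = 0.0259), and more in MK5-depleted than in control cells, by 0.527 (adjusted p = 0.0313). Amotl2 rose less in MK5-depleted than in control cells, with a difference of -0.363 (adjusted p = 0.0283). The same test called 28.6% of all genes in ERK3-depleted and 18% in MK5-depleted cells, and both lines share the control libraries. Over the fits that left out a single library, the Ankrd1 difference was 0.38 to 0.61 in ERK3-depleted and 0.41 to 0.62 in MK5-depleted cells. The Amotl2 difference in MK5-depleted cells was -0.43 to -0.30. The calls were lost in 5 of 12 of these fits for Ankrd1 in ERK3-depleted cells. In MK5-depleted cells they were lost in 7 of 12 for Ankrd1 and 9 of 12 for Amotl2. With length and GC offsets both MK5-depleted calls were lost (edgeR adjusted p = 0.0673 and 0.0587).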

How the results depend on the processing

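Of 49 called member results, the alternatives that kept all libraries or left out the 4 libraries with most reads outside genes gave 547 values, of which 498 stayed on the same side of the threshold, 45 lost the call and 4 turned sign. The values without those 4 libraries rest on a single DM2 library of each depleted line. Leaving out 1 library gave 312 values, of which 240 kept the call, 72 lost it and 0 turned sign. The cause was not tested. The number of members called in these fits was 0 to 4 in ERK3-depleted and 1 to 3 in MK5-depleted cells against control in GM, 0 to 2 for each response difference, and 0 to 1 between the depleted lines at DM2. Small differences that were not called crossed 0: Ankrd1 in ERK3-depleted GM cells (-0.0235 to 0.203), Ccn1 in ERK3-depleted DM2 cells (-0.0336 to 0.159), Amotl2 between the lines at DM2 (-0.0388 to 0.0908), and Yap1 (-0.0448 to 0.0105) and Timp1 (-0.0193 to 0.173) over the medium in control cells.

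With no filter, 2 members were called for the ERK3-depleted response and 1 between the depleted lines in each medium. With only the libraries of the contrast, 3 were called in ERK3-depleted GM cells. With the outside-gene covariate, 0 were called for the ERK3-depleted response, and Amotl2 between the lines at DM2 was -0.0316. At an adjusted p under 0.01, 0 and 2 were called in ERK3-depleted and MK5-depleted GM cells, 5 over the medium in MK5-depleted cells, and 0 for each response difference. Without the 4 libraries, counts of called members would rest on a single DM2 library of each depleted line and are not given. With RSEM counts, Yap1 over the medium in control cells was 0.00993.

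With length and GC offsets, 5 members were called over the medium in MK5-depleted cells and 0 for their response difference. Yap1 at DM2 became 0.0904 and 0.0377 and Ccn1 -0.106 and -0.0701 in ERK3-depleted and MK5-depleted cells. Yap1 over the medium was 0.0738 in ERK3-depleted cells, its response differences 0.172 and 0.0944, Thbs1 over the medium in control cells -0.0845, and Amotl2 between the lines at DM2 -0.0443. With the offsets and a replicate block over all lines, these were 0.0894 and 0.0367 for Yap1, -0.107 and -0.0698 for Ccn1 and -0.0454 for Amotl2, and 1 member was called between the lines at DM2. With the offsets and the block within lines, Yap1 over the medium was 0.0735, Thbs1 -0.0771 and the Yap1 response differences 0.170 and 0.0926, with 5 members called over the medium in MK5-depleted cells.

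The replicate block, in the 5 comparisons whose numbers paired the libraries, added Ccn2 in ERK3-depleted DM2 cells (0.37, adjusted p = 0.00955) and Timp1 over the medium in ERK3-depleted cells (0.29, adjusted p = 0.0124, within lines) and changed no other member's call. In the other 4, at least 1 same-numbered pair correlated at 0.1 or less (lowest -0.0917), so the numbers were not taken as pairing those libraries. Whether those libraries share more than a number is not known. Every pair was above 0 for MK5-depleted against control at DM2 (0.0553 to 0.165) and for the depleted lines in GM (0.0704 to 0.344). In these 4 comparisons the block over all lines called 8 members in MK5-depleted DM2 cells, 8 and 6 over the medium in MK5-depleted and control cells and 0 between the depleted lines in GM, as many as without it. For the response differences, which also draw on comparisons not taken as paired, it called 1 and 3 members in ERK3-depleted and MK5-depleted cells. Of 18 libraries, 10 correlated best with their own number in the other medium of the line.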
